A study of Mus musculus with 31 samples.

Results

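The mitochondrial ribosome (mitoribosome) translates the few messages of mitochondrial DNA into core subunits of the respiratory chain. Its RNAs come from mitochondrial DNA, whereas all of its proteins are encoded in the nucleus, made in the cytosol and imported. The proteins of the large subunit, which joins amino acids, carry the gene prefix Mrpl, and those of the small subunit, which reads the message, carry Mrps. Some have counterparts in bacteria and others are specific to mitochondria. The spots of genes with these prefixes were followed in 4 organs of mice with a mutation of Dll1, a ligand of the Notch receptors.

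Of the 20794 spots on the cDNA arrays (rows in the plots), 12760 had a gene name, and 76 of these belonged to 61 genes named Mrpl or Mrps. The large subunit had 46 spots of 38 genes and the small subunit 30 spots of 23 genes. All 61 genes matched an entry of the mouse reference, which holds 84 entries with these prefixes, pseudogenes included. Of the 61 genes, 13 had at least 2 spots and 2 of those had 3. Only 1 member spot, of Mrps6, lay in the last of 20 equal parts of the table, where the naming is least certain.

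RNA of brain, liver, spleen and thymus came from 4 male mice labelled as Dll1 mutant, 17 weeks old, and shared each array with a wild-type pool of that organ, made from males of 18 weeks. The labels name neither the allele nor the zygosity; the study's methods describe heterozygous carriers of a targeted Dll1 allele. Those methods give another age, RNA amount and number of mice for the arrays than the labels do, so that what is taken from them (the zygosity here and the log base below) may not belong to these arrays. The pool of an organ was the only control sample, listed with 4 animals in 1 label and with 6 in another, so the spread among wild-type mice does not enter any test. Each mouse and organ had 2 arrays with the dyes swapped, except thymus of mouse 2, which had 1 array with the mutant RNA in Cy5. Its values below were corrected with the dye effect seen in mice 1, 3 and 4.

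An array held 12923 to 20663 values (median 20376), and the 31 arrays lacked 0.63% to 37.9% of spots. The arrays of spleen mouse 1 stood apart, with 37.9% and 24.8% of spots missing and 230 and 294 repeated extreme values. Their medians over all spots were 0.71 and 0.098. The deposited values are log2 ratios, and mutant over pool is their likely direction, from the order of the channels in the labels. The direction is stated in none of the sources, and pool over mutant would turn every sign. The correlation over all spots between the 2 arrays of a mouse was -0.19 to 0.13 (median -0.025), and over the mitoribosomal spots it was -0.37 to 0.21 (median -0.048). Gene names rest on a displacement of 11 places between the table and the probe list, which was inferred from the values. Spots of the same gene had a mean correlation of 0.034 at that displacement over 4892 pairs, against 0.0039 at the numbers as listed. Because ratios were set against a pool of the same organ, marker genes cannot show which tissue a sample was.

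The promoters of mitoribosomal genes are known for sites of the ETS family factor GABP, of NRF1 and of YY1, which coordinate nuclear genes for mitochondria. The reference table held a promoter window, from 250 bases before to 50 bases after the start, for 54 of the 61 genes (RefSeq, GRCm38.p6). Windows were searched on both strands. The ETS letters CCGGAAG were in the windows of 21 of these 54 genes (38.9%), against 9.93% of all 27025 genes. The NRF1 letters GCATGCGC were in 5 (9.26%, against 3.05%) and the YY1 letters AAGATGGCG in 8 (14.8%, against 1.64%). The 27025 genes include many without a spot here. Of the named spots with a window tested in brain, 1741 were of genes with the ETS letters and 7801 of genes without. That is a larger share than over the 27025 genes, so these contrasts are partly due to the choice of comparison. The stretches below lie before the annotated start of 5 genes whose spots are described further on, and they show the letters searched, in capitals, on either strand.
Mrps18a (ETS; chr17:46110952-46111003, plus strand): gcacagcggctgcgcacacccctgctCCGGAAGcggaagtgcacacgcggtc
Mrps22 (ETS; chr9:98601680-98601716, minus strand): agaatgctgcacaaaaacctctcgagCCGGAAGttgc
Mrpl17 (NRF1; chr7:105811088-105811124, minus strand): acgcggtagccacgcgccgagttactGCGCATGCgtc
Mrpl10 (NRF1; chr11:97041422-97041481, plus strand): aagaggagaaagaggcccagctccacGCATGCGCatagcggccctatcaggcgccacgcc
Mrps18b (NRF1; chr17:35916630-35916689, minus strand): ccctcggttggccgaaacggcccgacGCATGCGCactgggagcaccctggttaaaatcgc
These matches describe the letters alone.

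The mitoribosomal spots as a group lay close to the pool in every organ. The median log2 ratio over the spots of a mouse, averaged over the 4 mice, was -0.086 ± 0.077 in brain, -0.0037 ± 0.051 in liver, -0.010 ± 0.16 in spleen and 0.042 ± 0.11 in thymus (SD, n = 4). Over all spots tested the same measure was 0.015 in brain, 0.018 in liver, 0.100 in spleen and -0.0028 in thymus. Set against all spots of the same mouse, the mitoribosomal median was lower in 4 of 4 mice in brain (difference -0.10 ± 0.065) and in spleen (-0.11 ± 0.039). It was lower in 2 of 4 mice in liver (-0.021 ± 0.055) and in 1 of 4 in thymus (0.045 ± 0.088). The lower value of spleen mouse 1 rested on spots with a value on both of its arrays. On each of these arrays taken alone, the mitoribosomal median lay above that of all spots, by 0.055 in Cy5 and 0.28 in Cy3. The members were chosen with results known, so these shifts are descriptions without a test.

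In brain the mitoribosomal medians of mice 1 to 4 were -0.11, -0.13, -0.13 and 0.028. In spleen they were 0.23, -0.12, -0.089 and -0.059, and mouse 1, whose arrays lacked the most values, was the only one above 0. Without that mouse the spleen median was -0.095 ± 0.033 (n = 3). In thymus the medians were -0.044, 0.20, -0.016 and 0.031, and the highest was that of mouse 2, which had 1 array. Without mouse 2 the thymus median was -0.0077 ± 0.037 (n = 3).

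The large and the small subunit did not separate beyond the spread between mice in any organ. The median over large subunit spots less that over small subunit spots was 0.025 ± 0.13 in brain, -0.082 ± 0.13 in liver, -0.28 ± 0.52 in spleen and -0.022 ± 0.071 in thymus (SD, n = 4). The spleen value rested on mouse 1. Its small subunit median was 0.91, against -0.040, -0.073 and -0.087 in mice 2, 3 and 4, and without it the difference between subunits was -0.023 ± 0.079 (n = 3). In liver the large subunit was lower than the small one in 3 of 4 mice, with differences of 0.11, -0.21, -0.12 and -0.10.

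**Figure D1:**
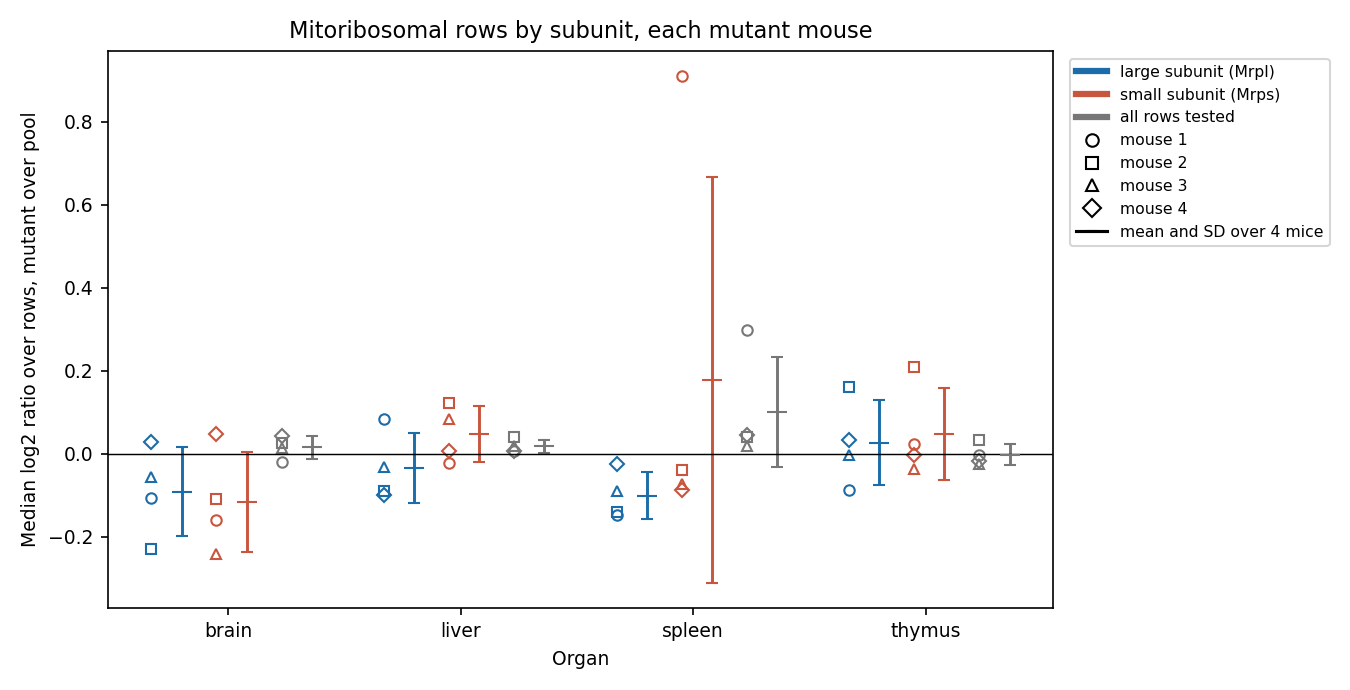
Median log2 ratio (mutant over pool) over the large subunit spots, the small subunit spots and all spots tested, for each mouse (symbols) with the mean and SD over 4 mice, by organ. Subunits overlap in each organ, and the small subunit of spleen mouse 1 stands alone at 0.91.

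Proteins with a bacterial counterpart and those specific to mitochondria gave medians near each other over their spots. In brain the large subunit proteins with a bacterial counterpart had a median of -0.11 (30 spots) and those specific to mitochondria 0.0054 (15 spots). For the small subunit these values were -0.14 (16 spots) and -0.13 (10 spots). The widest gap between them in spleen was 0.057 for small subunit proteins with a bacterial counterpart against -0.062 for those specific to mitochondria. The stalk, whose proteins Mrpl10, Mrpl11 and Mrpl12 recruit translation factors, had 4 spots with medians from -0.16 in brain to 0.070 in thymus.

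No mitoribosomal spot passed an adjusted p of 0.05 in any organ (limma, Benjamini-Hochberg over all spots of the organ), and neither did any other spot (background 0.0% in each organ). The numbers tested, with values in at least 3 mice, were 75 in brain, 73 in liver, 75 in spleen and 74 in thymus. Mrps27 was not tested in brain, spleen and thymus, Mrps16, Mrps5 and 1 spot of Mrpl17 were not tested in liver, and Mrpl1 was not tested in thymus. The smallest adjusted p among members was 0.42 in brain, 0.921 in liver, 0.414 in spleen and 0.86 in thymus. Robust moderation, a dye term fitted over the arrays and a spread shared by the 4 organs called 0 members too, although the shared spread called 80 of all spots in brain and 256 in spleen.

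At an unadjusted p under 0.05, 6 members were lower and 4 higher in brain, where 4.44% of all spots were lower and 7.25% higher. The 6 lower ones, 8% of those tested, were spots of Mrpl11, Mrpl30, Mrpl46, Mrpl49, Mrps25 and Mrps6, and the 4 higher ones of Mrpl10, Mrpl35, Mrpl47 and Mrps17. In spleen 6 were lower (background 5.1%) and 2 higher (5.57%). The lower ones were spots of Mrpl21, Mrpl33, Mrpl38, Mrpl51, Mrpl58 and Mrps6, and the higher ones of Mrpl17 and Mrpl4. In liver 0 were lower (background 1.79%) and 0 higher (2.7%), and in thymus 1 was lower (2.44%) and 0 higher (0.684%). These shares stayed within a few spots of the background in each organ.

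The signs in single mice gave counts of the same kind. Of the 61 members with all 4 mice in brain, 11 were below 0 in every mouse (18.0%, background 17.6%) and 7 above 0 (11.5%, background 10.6%). In liver 5 of 70 were below (background 5.65%) and 5 above (7.44%), and in thymus 4 of 68 were below (6.92%) and 4 above (6.16%). In spleen 7 of 39 were below 0 in every mouse (17.9%, background 13.9%), and 0 were above, where 12.3% of all spots were. The spleen counts rest on the 39 members that had a value in mouse 1.

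**Figure D2:**
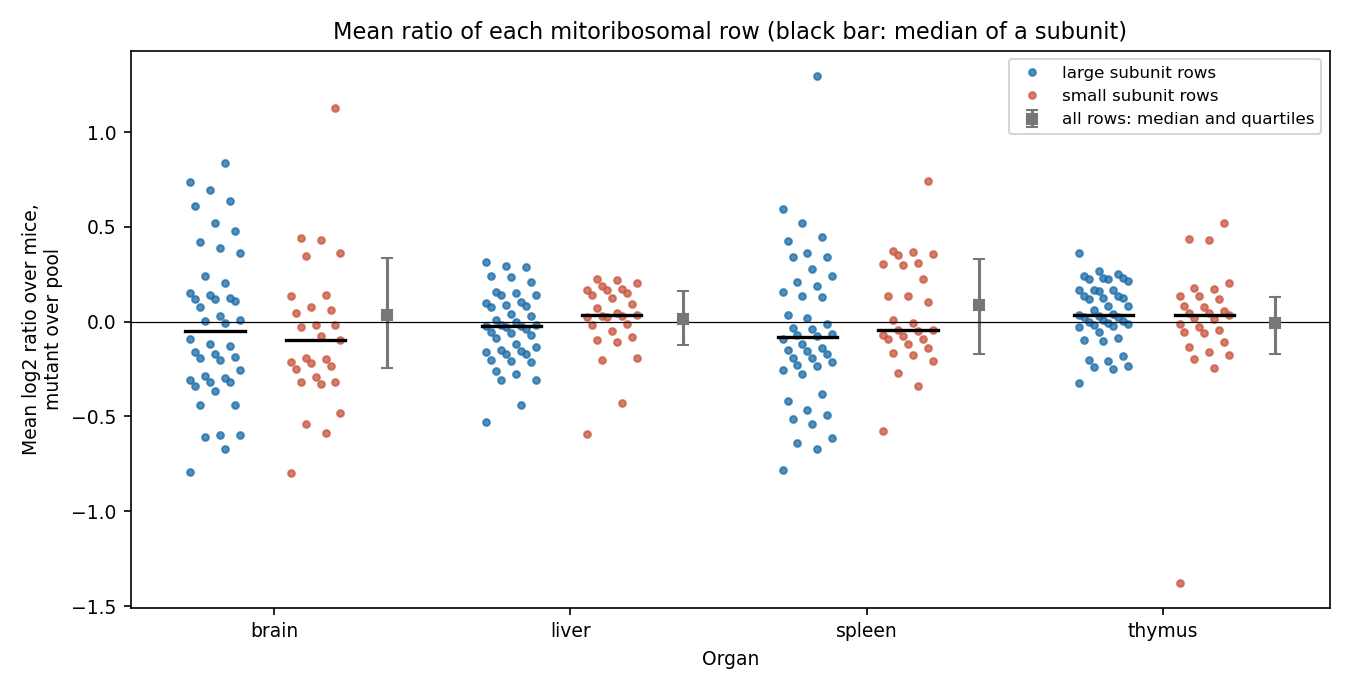
Mean log2 ratio (mutant over pool) of each mitoribosomal spot with values in at least 3 mice, by subunit and organ, with black bars at the medians and grey squares with bars for the median and quartiles of all spots. Spots scatter on both sides of 0 in each organ, and Mrps16 in thymus is the lowest at -1.38.

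The highest mean in brain was that of 1 spot of Mrps17, a small subunit protein with a bacterial counterpart. It had 1.81, 0.95, 0.29 and 1.46 in mice 1 to 4, a mean of 1.13 ± 0.66 (SD, n = 4; limma adjusted p = 0.42), above 0 in every mouse. Single brain ratios were wider in Mrpl58 (2.25), Mrps10 (-2.06) and Mrps34 (1.87), whose mice lay on both sides of 0. The Mrps17 mean was 2.50 ± 2.34 where the mutant RNA carried Cy3, with 5.84, 1.68, 0.41 and 2.06 in mice 1 to 4. Where it carried Cy5 the mean was -0.24 ± 1.35, with -2.21, 0.23, 0.16 and 0.86. Each mouse was higher in Cy3 than in Cy5, and mouse 1 weighed most on both means. The second spot of this gene averaged 0.064 in brain.

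Mrpl11, which forms the base of the stalk, had -0.47, -0.55, -0.34 and -1.33 in brain of mice 1 to 4, a mean of -0.67 ± 0.45 (adjusted p = 0.42). Mrpl49, a large subunit protein specific to mitochondria, had -0.34, -0.38, -0.28 and -1.38 at its spot 5887, a mean of -0.60 ± 0.52 (adjusted p = 0.42). In both, mouse 4 was far below the others, and without it the means were -0.45 for Mrpl11 and -0.33 for Mrpl49. Mrpl30 had -0.77, -0.43, -0.056 and -1.13, a mean of -0.60 ± 0.46. Its mean was alike in the 2 orientations, at -0.60 in Cy3 and -0.59 in Cy5, but its mice were not. Mice 1 to 4 had -1.45, -0.86, -0.40 and 0.33 in Cy3. They had -0.086, 0.001, 0.29 and -2.58 in Cy5, where mouse 4 alone was far below 0. The means of Mrpl11 and Mrpl49 differed between orientations, at -1.20 in Cy3 and -0.15 in Cy5 for Mrpl11 and -1.52 and 0.33 for Mrpl49. The second spot of Mrpl49 averaged -0.61 in brain, with -0.46 ± 0.31 in Cy3 and -0.75 ± 1.25 in Cy5.

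Of the stalk proteins, Mrpl10 ran the other way in brain at its spot 2618, with 0.33, 0.21, 0.67 and 1.24 and a mean of 0.61 ± 0.46. Without mouse 4 the mean was 0.40, and it was 1.07 in Cy3 and 0.15 in Cy5. Its second spot had a mean of -0.44 there, so the 2 spots of this gene did not share a sign. Mrpl47, a large subunit protein with a bacterial counterpart, had 0.48, 0.31, 0.87 and 0.44, a mean of 0.52 ± 0.24 (adjusted p = 0.42). Each mouse was above 0, but the mean was 0.069 in Cy3 and 0.98 in Cy5, so that nearly all of it came from 1 orientation.

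In liver the ratios were smaller. Mrpl23, which sits at the exit of the tunnel for the new protein, had -0.32, -0.25, -0.37 and -0.28, a mean of -0.31 ± 0.053 (limma adjusted p = 0.921), with mice closer to each other than for any other spot named here for an organ. The 2 orientations of this spot were less alike, with a mean of -0.58 in Cy3 and -0.032 in Cy5. Mrpl15 and Mrpl21 (spot 16096), both large subunit proteins with bacterial counterparts, averaged -0.28 ± 0.25 and -0.21 ± 0.17. Without mouse 2 these means were -0.16 and -0.13. On the high side Mrpl17 (spot 3620) had 0.12, 0.98, 0.082 and 0.079, so that mouse 2 alone stood apart, and averaged 0.095 without it. Mrpl47 had 0.10, 0.011, 0.77 and 0.085, and there mouse 3 did (mean without it 0.065). Mrpl10 (spot 2618) averaged 0.21 ± 0.20, and 0.11 without mouse 1. The other spots of these genes tested in liver averaged -0.31 for Mrpl10, -0.021 for Mrpl17 and -0.021 for Mrpl21. For Mrpl10 and Mrpl17 the spots thus did not share a sign. Of the 6 spots named for liver, Mrpl23 alone thus kept a mean that did not move by over 1.5 times when 1 mouse was left out.

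No member was above 0 in all 4 spleens, and the 3 named for 1 sign in all 4 mice were low. The highest spleen mean was nevertheless that of Mrpl4 (spot 18939), at 1.30 with ratios from 0.34 to 2.25. That spot did not have a value in every mouse, and the second Mrpl4 spot averaged 0.16. Mrpl58, a peptidyl-tRNA hydrolase built into the large subunit, had -1.11, -0.38, -0.55 and -1.08 in mice 1 to 4, a mean of -0.78 ± 0.37 (limma adjusted p = 0.414). The same spot averaged 0.84 ± 1.17 in brain, with mice between -0.56 and 2.25. Mrpl38, a large subunit protein specific to mitochondria, had -1.22, -0.53, -0.27 and -0.44 in spleen, a mean of -0.61 ± 0.42.

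Mrpl23 had -1.85 in spleen mouse 1 and -0.23, -0.20 and -0.40 in mice 2, 3 and 4, a mean of -0.67 ± 0.79. Without mouse 1 the mean of this spot was -0.27. Mrpl23 was also the only member with 1 sign in at least 14 of the 16 samples of mouse and organ, below 0 in all samples of brain, liver and spleen and in 2 of 4 of thymus. That was 1 of 34 members with 16 values (2.94%), against 2.8% of all spots.

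In thymus Mrps16, a small subunit protein with a bacterial counterpart, had the lowest mean of all members, -1.38 ± 0.89 (limma adjusted p = 0.86). Its ratios were -2.15, -0.14, -1.89 and -1.32 in mice 1 to 4, and both orientations were low (-1.85 in Cy5 and -1.32 in Cy3). Without mouse 1 the mean was -0.77, where the dye correction of mouse 2 rested on mice 3 and 4 alone, and without mouse 2 it was -1.79. In brain the spot ranged from -1.56 to 1.70 over 3 mice, and in liver it had values in 2 mice only.

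The other thymus members at the extremes rested largely on mouse 2, which had 1 array. Mrpl13 had -0.087, -0.99, -0.19 and -0.028, and Mrpl20 had -0.055, -0.79, -0.027 and -0.063. Mrps22, a small subunit protein specific to mitochondria, had 0.35, 1.09, 0.15 and 0.15, a mean of 0.43 ± 0.45. Mrps36 had 0.032, 1.53, 0.11 and 0.049. In each of the 4, mouse 2 lay farthest from 0, and without it the means were -0.10 for Mrpl13, -0.048 for Mrpl20, 0.22 for Mrps22 and 0.063 for Mrps36. Mrpl11 had 0.29, 0.087, 0.28 and 0.81 and a mean of 0.36 ± 0.31, and there mouse 4 stood apart (mean without it 0.16).

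**Figure D3:**
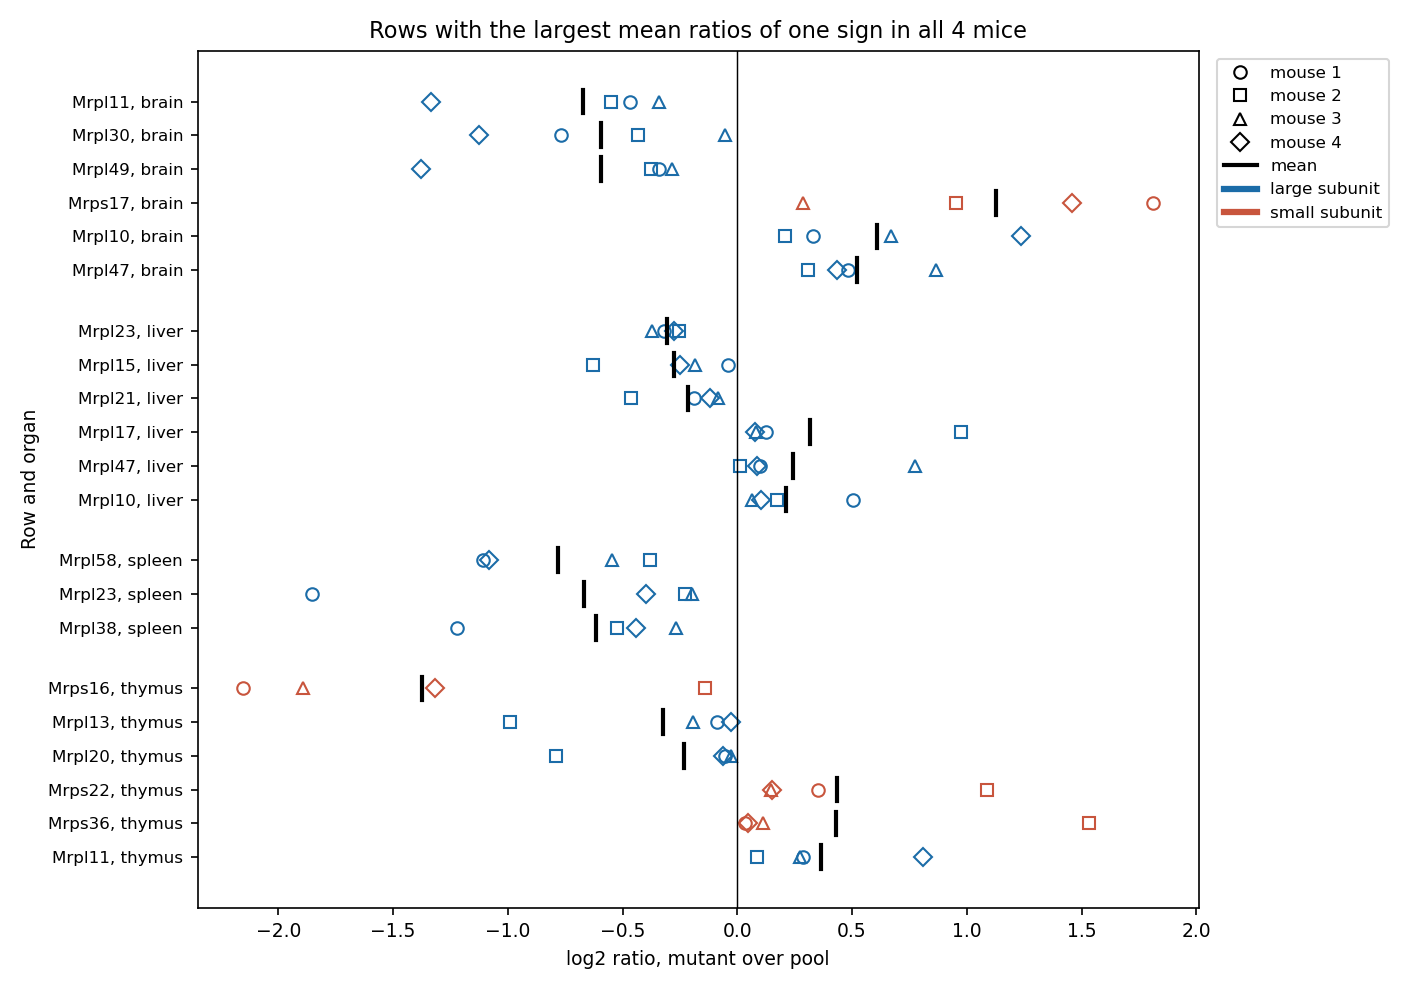
Log2 ratios (mutant over pool) of each mouse (symbols) with the mean (bar) for the spots with the lowest and highest means among those of one sign in all 4 mice, by organ. In thymus the square of mouse 2 lies farthest from 0 in Mrpl13, Mrpl20, Mrps22 and Mrps36, and in spleen mouse 1 has the lowest Mrpl23 at -1.85.

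Between organs no member passed an adjusted p of 0.05 in any of the 6 pairs (limma over all 16 samples, 71 members tested in each pair). The background was 0.00554% of spots for brain less liver, 0.0332% for brain less spleen and 0.0% for the other 4 pairs. At an unadjusted p under 0.05 there were 6 members for brain less liver (background 8.97%), 5 for brain less spleen (10.2%) and 10 for brain less thymus (12%). There were 5 for liver less spleen (8.37%), 0 for liver less thymus (2.64%) and 8 for spleen less thymus (10.6%). With the mouse as a block the 6 pairs called 0 members as well.

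The smallest unadjusted p between organs were those of Mrpl58 and Mrpl11. Mrpl58 was 1.62 ± 0.46 (SE) higher in brain than in spleen (limma adjusted p = 0.292). Mrpl11 was 1.04 lower in brain than in thymus (difference -1.04 ± 0.29, SE; adjusted p = 0.282), below 0 in 4 of 4 brains and above 0 in 4 of 4 thymuses. Neither passed the adjustment over all spots.

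A mean below 0 in all 4 organs was seen in 7 of 71 member spots (9.86%, background 6.5%). They were spots of Mrpl23, Mrpl34, Mrps23, Mrpl14, Mrpl17, Mrpl30 and Mrpl13. A mean above 0 in all 4 organs was seen in 5 (7.04%, background 10.4%), of Mrps7, Mrps24, Mrps17, Mrpl9 and Mrps9.

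Spots of the same gene often differed. Among the 13 genes with at least 2 spots tested, the means shared a sign in 7 genes in brain, 5 in liver, 8 in spleen and 5 in thymus. The median gap between the lowest and highest spot of a gene was 0.40 in brain, 0.25 in liver, 0.39 in spleen and 0.19 in thymus, which is as wide as the SD of all members' means in brain and spleen (0.39 and 0.35). The 3 spots of Mrpl17 averaged -0.44, -0.0056 and 0.74 in brain. Those of Mrps6, a small subunit protein with a bacterial counterpart, averaged -0.32, -0.099 and -0.48 there, and 0.14, 0.0070 and -0.58 in spleen. Which transcripts or relatives each cDNA spot binds was not known.

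Several members have names that differ from their place in the ribosome. Mrps18a and Mrps18b are paralogues of a single bacterial protein, of which Mrps18a is built into the large subunit (Mrps18c had no spot here). Mrps18a averaged -0.020 in brain, 0.23 in liver, 0.35 in spleen and -0.012 in thymus, where the liver mean came from mouse 3 (1.65) and the spleen mean from mouse 1 (1.44). Mrps18b averaged -0.33 and -0.32 in brain at its 2 spots, and only the first had 1 sign in all mice (-0.10, -0.35, -0.49 and -0.37), with a mean of -0.66 in Cy3 and 0.011 in Cy5. Mrps30, also built into the large subunit, averaged 0.31 ± 0.92 in spleen and between -0.077 and 0.057 in the other organs. Mrps36, which belongs to the 2-oxoglutarate dehydrogenase complex, averaged -0.20 in brain, 0.17 in liver, -0.34 in spleen and 0.43 in thymus. Counting Mrps18a and Mrps30 with the large subunit, and leaving Mrps36 out of both, moved no difference between subunits beyond 1 SD.

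The 2 dye orientations of brain gave different pictures of the mitoribosomal spots. Where the mutant RNA carried Cy3 their median less that of all spots was -0.26 ± 0.11 (SD, n = 4 arrays), and it was lower on each of the 4. Where it carried Cy5 the difference was -0.024 ± 0.076, lower on 2 of 4. In spleen the difference was -0.082 ± 0.26 on the Cy3 arrays, with 0.28 in mouse 1 and -0.34, -0.13 and -0.15 in mice 2, 3 and 4. Without mouse 1, whose arrays stood apart, it was -0.20 ± 0.12 in Cy3 and -0.090 ± 0.030 in Cy5 (n = 3 arrays each), lower on each of the 6 arrays. Low Cy3 arrays were thus not seen in brain alone. In liver and thymus the mean differences lay between -0.036 on the Cy3 arrays of liver and 0.065 on the Cy5 arrays of thymus. A dye effect and a mutant effect cannot be told apart within 1 orientation.

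**Figure D4:**
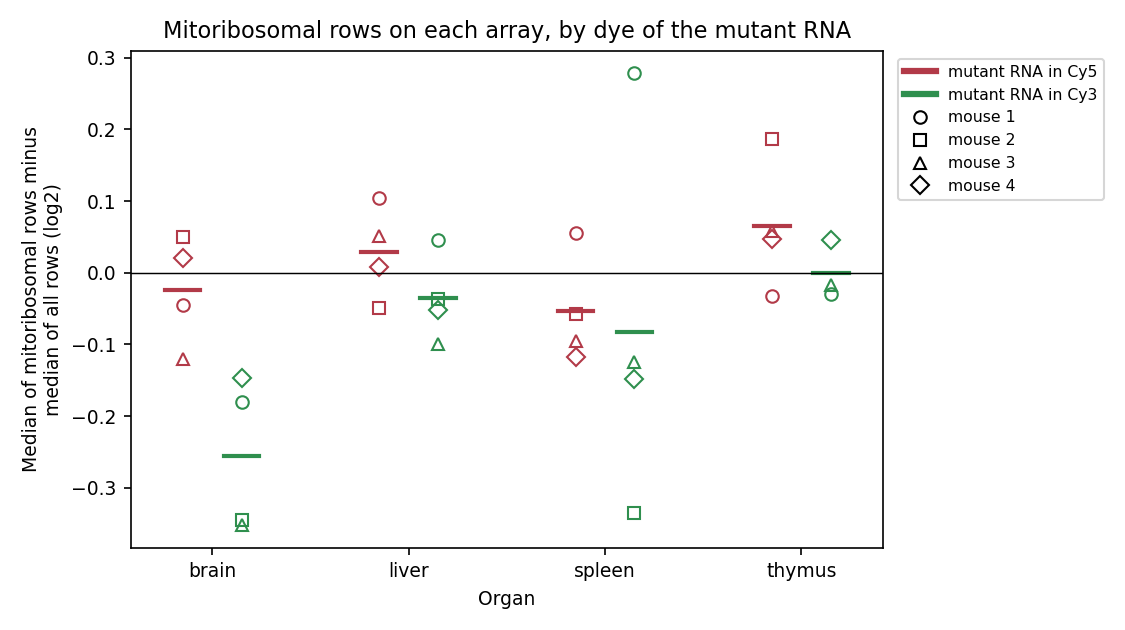
Median log2 ratio of the mitoribosomal spots less that of all spots on each of the 31 arrays, by organ and by the dye of the mutant RNA, with bars at the means. In brain the 4 arrays with Cy3 on the mutant RNA are all below 0, whereas those with Cy5 lie on both sides, and in spleen 3 of 4 arrays of either dye are below 0.

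Fitted alone, the 4 brain arrays that had Cy3 on the mutant RNA called 6 of 76 members (7.89%), against 6.97% of all spots (limma, Benjamini-Hochberg). Of these 5 were lower (background 3.4%) and 1 was higher (3.57%). The lower ones were spots of Mrps6 (-1.30 ± 0.25), Mrpl49 (-1.52 ± 0.62), Mrpl21 (-1.05 ± 0.25), Mrpl10 at its spot 588 (-1.01 ± 0.28) and Mrpl11 (-1.20 ± 0.50), each with an adjusted p between 0.044 and 0.0457 (SD, n = 4 arrays). The higher one was Mrpl35, a large subunit protein with a bacterial counterpart (1.20 ± 0.56, adjusted p = 0.0498). In Cy5 the same 6 spots averaged 0.34, 0.33, 0.32, 0.13, -0.15 and 0.18. The Mrps6 spot called here is that of the last part of the table.

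Mitoribosomal spots varied less between mice than spots in general. The median SD over mice was 0.39 for members and 0.46 for all spots in brain, 0.30 and 0.35 in liver, 0.37 and 0.42 in spleen and 0.29 and 0.34 in thymus. Within arrays the SD over members was smaller than that over all spots on 26 of 31 arrays (medians 0.67 and 0.81).

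Families with related tasks were set beside the mitoribosomal spots. The cytosolic ribosome, which makes all nuclear-encoded proteins, averaged -0.66 ± 0.14 in spleen (median over spots in each mouse, SD, n = 4). There 83 of its 91 spots were below 0, against 40.7% of all spots. The mitoribosomal median was higher than the cytosolic one in 4 of 4 spleens, by 0.93, 0.49, 0.41 and 0.77 in mice 1 to 4. The widest gap was that of mouse 1, whose arrays lacked the most values. In 4 of 4 brains it was higher by 0.16, 0.30, 0.20 and 0.36. Nuclear genes of oxidative phosphorylation averaged -0.27 ± 0.086 in spleen and -0.30 ± 0.075 in brain, and the mitoribosomal spots lay 0.26 ± 0.20 and 0.21 ± 0.092 above them, again in 4 of 4 mice each. The same measure over all spots tested was higher than that of the mitoribosomal spots, at 0.100 in spleen and 0.015 in brain. In liver and thymus the mitoribosomal spots were above either family in 1 or 2 of 4 mice.

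**Figure D5:**
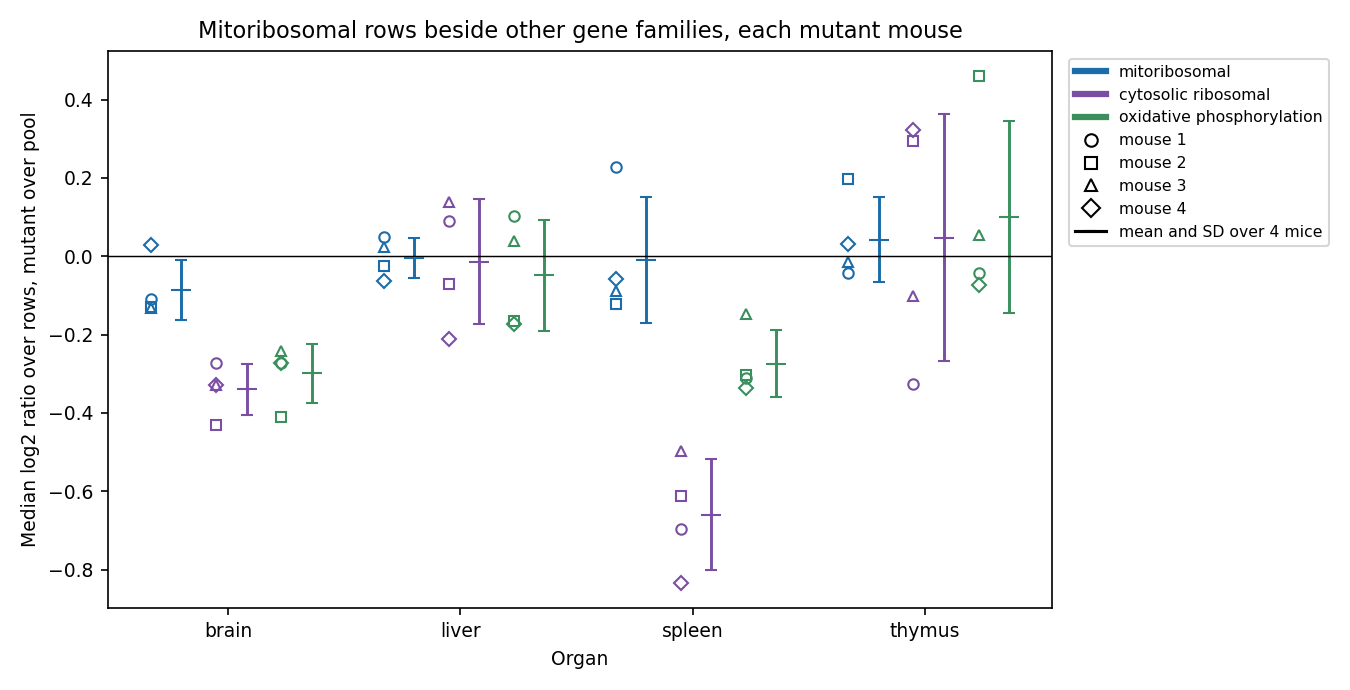
Median log2 ratio (mutant over pool) over mitoribosomal spots, cytosolic ribosomal protein spots and spots of nuclear oxidative phosphorylation genes, for each mouse with the mean and SD over 4 mice, by organ. In spleen and brain the mitoribosomal values lie above those of the other families in each mouse.

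Cell type markers lay on both sides of 0, none past the adjusted threshold. Over 11 lists the medians ran from -0.81 to 0.24 in spleen, with 7 below 0, and from -0.61 to 0.61 in brain, with 6 below 0. The lowest in spleen was that of B cell markers, with 6 of 6 spots below 0 (median -0.81, from -1.34 to -0.41), against 40.7% of all spots there. These spots covered 4 of the 10 genes listed, with Cd74 at more than 1 spot, so they are not 6 separate markers. Of these 6, 5 were lower at an unadjusted p under 0.05 (background 5.1%). Of the 9 spots of blood and erythroid genes in spleen 8 were below 0 (median -0.54, from -0.66 to 0.088) and 4 were lower at that p. The 9 spots covered 4 genes, with Hba-a1 at several of them. The 3 spots of exocrine pancreas genes had a median of -0.74. The medians of T cell markers (0.093, 3 of 9 spots below 0) and of macrophages and granulocytes (-0.053, 6 of 12) lay near 0 in spleen. The latter spots ran from -1.26 to 0.76, with Lyz2 at -1.26 and -1.03 and Mpo (spot 4938) at 0.76. Of these 12, 3 were lower (background 5.1%) and 1 higher (5.57%) at an unadjusted p under 0.05 (limma). Spleen medians were 0.24 for neuron markers (1 of 9 below 0), 0.21 for adipocytes (0 of 4) and -0.20 for cycling cells (10 of 14). In brain blood and erythroid spots had a median of -0.61, from -1.18 to 1.31. Their part in the mitoribosomal values was not tested. In bulk organs fewer cells of a type and less RNA per cell cannot be told apart.

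The rest of the mitochondrial translation machinery gave 0 spots past the adjusted threshold in each organ (limma), as did all spots. The 4 subunits listed under other names (5 spots) had medians of -0.20 in brain, 0.092 in liver, -0.13 in spleen and 0.12 in thymus. All 5 spots were above 0 in liver and thymus and all were below 0 in spleen. Of all spots 47.0% were below 0 in liver, 51.3% in thymus and 40.7% in spleen. Ptcd3 had more than 1 of the 5 spots, so they are not separate genes. Dap3, a small subunit protein that binds GTP, averaged -0.20 ± 0.17 in brain and 0.34 ± 1.03 in liver, and Ptcd3, a small subunit protein of the pentatricopeptide family, averaged -0.30 ± 0.44 and 0.23 ± 0.30.

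Of the 16 or 17 spots for translation factors of mitochondria, at an unadjusted p under 0.05, 2 of 17 were lower in liver (background 1.79%) and 0 higher (2.7%). In the other organs 0 of 16 were lower or higher, where the background was 4.44% and 7.25% in brain, 5.1% and 5.57% in spleen and 2.44% and 0.684% in thymus. Gfm1, which moves the ribosome along the message, was among the lower ones with -0.53 ± 0.42 in liver, and Tsfm, which recycles an elongation factor, was not, with -0.51 ± 0.52. Assembly factors had 1 higher spot of 17 in liver (background 2.7%), that of Noa1 (0.62 ± 0.59), and 2 of 17 in spleen (5.57%), among them Ddx28 (1.06 ± 1.16), an RNA helicase. Of the tRNA synthetases Iars2, which charges tRNA with isoleucine, averaged -0.62 ± 0.37 at 1 spot in liver and 0.19 ± 0.37 at another.

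For mitochondrial DNA the packaging and transcription factor Tfam averaged 0.47 ± 0.30 and -0.43 ± 0.50 in liver at its 2 spots, of opposite sign. The regulators had spots on both sides of 0. Below 0 were 9 of 14 in brain (46.6% of all spots) and 8 of 14 in liver (47.0%). In spleen 6 of 13 were below (40.7%) and in thymus 7 of 14 (51.3%). Among the regulators Gabpa, the DNA-binding subunit of GABP, averaged 0.60 ± 0.23 in brain and 0.39 ± 0.23 in thymus (limma adjusted p = 0.42 and 0.86). Ppargc1a, a coactivator of mitochondrial genes, averaged -0.44 ± 0.19 in brain, and its relative Ppargc1b -0.42 ± 0.31 in liver (adjusted p = 0.42 and 0.921). Nrf1 averaged 0.38 ± 0.51 in liver at spot 6310, -0.32 ± 0.29 in spleen at spot 19927 and -0.76 ± 1.44 in thymus at spot 6272. These are different spots, each picked for the size of its mean in that organ, so they do not compare the organs.

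The members were last split by the letters in their promoters. In spleen 23 of 26 spots of genes with CCGGAAG had a mean below 0 (88.5%, median -0.14), against 17 of 41 spots of genes without it (41.5%, median 0.13). Over all named spots with a promoter window in spleen the shares were 50.3% and 43.8%. Without mouse 1 the member counts were 21 of 26 and 22 of 41 (56% and 47.5% over all named spots). On the Cy5 arrays of the mutant RNA alone they were 13 of 26 and 18 of 41 (44% and 40.8%). The same split gave 17 of 26 and 22 of 41 in brain, where the shares of all named spots were 53.5% and 49.8%. It gave 11 of 25 and 21 of 40 in liver (48.1% and 48.1%), and 13 of 26 and 12 of 40 in thymus (50.2% and 50.5%). The spleen split was singled out after 12 such counts (3 sets of letters in 4 organs) had been seen and has no test.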

How the data were processed

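The authors labelled 20 µg of total RNA for each channel, used GenePix to scan the cDNA arrays, and deposited log2 ratios, 1 for each spot. The base is taken from the study's table of ratios, although its methods and the labels differ on age, RNA amount and number of mice, and normalization and spot filters are not given in the sources used here. No normalization was added. Values beyond 12 in size were dropped and the 2 arrays of each mouse and organ were averaged where both had a value. Spot n took the gene of probe n less 11. Spots with at least 3 mice were tested against 0 with limma 3.58.1 in R 4.3.3 (intercept, empirical Bayes moderation, Benjamini-Hochberg over all spots of an organ, threshold 0.05), and organs were compared in 1 fit of 16 samples. Organs came from the same animals by the labels, and same-mouse deviations correlated at -0.073 to 0.060 (median -0.0077, 24 pairs) and different mice at -0.068 to 0.083. Other tables used Python 3.11.15, pandas 2.3.3 and numpy 2.4.6. The fit was tested on simulated data.

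Members and lists were chosen with earlier results of these data known. Named are, in each organ, the 3 lowest and 3 highest members of 1 sign in all 4 mice, genes of 1 sign in at least 14 of 16 samples, genes with 3 spots, the Mrps18 genes, Mrps30 and Mrps36, and up to 3 spots of a pathway list. Other members are named where a count of calls or signs holds them, after their values were seen. Replicates are mice, and p-values leave out the spread of the pool.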

Additional observations from a re-analysis of the deposited data

Results flagged for a closer look

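The limit used flags about 1 in 20 groups of unselected, independent values. Many groups here were spots chosen by their values or sets that share spots, so their count cannot be set against that rate. Of 100 groups of 4 mice examined, 14 held 1 mouse far from the other 3. Spleen mouse 1, whose arrays lacked the most values, was the far one in 4 of them, with Mrpl23 at -1.85 (others -0.40 to -0.20), Mrps18a at 1.44 (others -0.087 to 0.070), the small subunit median at 0.91 (others -0.087 to -0.040) and the large less small subunit at -1.06 (others -0.10 to 0.061). Spleen mouse 2 had Mrps6 (spot 20642) at -0.22, above the others (-0.73 to -0.67).

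Brain mouse 4 had Mrpl49 (spot 5887) at -1.38 (others -0.38 to -0.28), Mrpl20 at 0.17 (others -0.32 to -0.24) and the mitoribosomal median at 0.028 (others -0.13 to -0.11). Thymus mouse 2, with its 1 array, had Mrpl20 at -0.79 (others -0.063 to -0.027) and Mrps36 at 1.53 (others 0.032 to 0.11). In liver, mouse 3 had Mrpl47 at 0.77 (others 0.011 to 0.10), Mrps6 (spot 622) at -0.43 (others 0.37 to 0.39) and Mrps18a at 1.65 (others -0.31 to -0.19), and mouse 2 had Mrpl17 (spot 3620) at 0.98 (others 0.079 to 0.12).

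Of 94 pairs of organs examined, 1 had all mice below 0 in one organ and all above 0 in the other. Mrpl11 averaged -0.67 in brain and 0.36 in thymus, a difference of -1.04 whose own test did not pass (limma adjusted p = 0.282).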

How the results depend on the processing

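The counts of 0 called members in the 4 organs and 6 organ pairs held under each alternative run, except 6 in brain with the mutant RNA in Cy3 only; the replicate block, by the pairing of organs within a mouse, called 0 in each pair. With Cy3 only the brain median was -0.23 and its large less small subunit -0.15, and the brain spots of Mrpl11 (-1.20) and Mrpl49 (-1.52) passed (adjusted p = 0.0457 and 0.044). With Cy5 only the medians were 0.086 in brain, 0.069 in liver and 0.15 in spleen and the thymus large less small subunit was 0.050. With names at the numbers as listed the medians were 0.020 in brain and 0.067 in liver, and large less small subunit was -0.11 in brain and 0.085 in thymus. Read as Cy5 over Cy3 the brain median was 0.12, and these spots turned sign: in brain Mrpl11 (0.53), Mrpl30 (0.0034), Mrpl49 (0.93), Mrps17 (-1.37) and Mrpl10 (-0.46), in liver Mrpl23 (0.27), Mrpl15 (0.31), Mrpl21 (0.025), Mrpl17 (-0.36), Mrpl47 (-0.020) and Mrpl10 (-0.12), Mrpl58 in spleen (0.30) and Mrpl11 in thymus (-0.18). With Cy5 only Mrpl49 (0.33) and Mrps17 (-0.24) in brain and Mrpl15 (0.029) and Mrpl17 (-0.042) in liver turned sign, and with Cy3 only Mrps36 in thymus (-0.18). The cause was not tested. Leaving out each mouse left the counts of called members at 0, but this is a weak check, since these fits had less power and tested fewer spots. In the spleen split by CCGGAAG, alternatives chosen after seeing the data gave 21 of 26 spots below 0 without mouse 1, 20 of 27 with Cy3 only, 13 of 26 with Cy5 only and 7 of 26 read as Cy5 over Cy3. Leaving out mouse 1 from the spleen difference by dye was also chosen after seeing the data. Signal over background was not used here, so weak spots cannot be set apart.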
